A study of Mus musculus with 30 samples.

Results

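Translation initiation factors are described here in 8-cell mouse embryos, as 55 of the 49585 rows of a table of gene levels. The members were chosen by name: every symbol that begins with Eif and a digit from 1 to 6. The 2 genes for the gamma subunit of eIF2 and 6 processed pseudogene rows whose names end in -ps and a digit were left out, so 55 of 63 such rows remained. By factor these were 5 rows for eIF1, 14 for eIF2, 14 for eIF3, 16 for eIF4, 5 for eIF5 and 1 for eIF6. The name rule also took Eif5al3-ps, which RefSeq lists as a pseudogene, and Eif2c5, which RefSeq lists as a long noncoding RNA.

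The series, whose title names nucleosome remodeling by the transcription factor YY1, holds 30 samples, and the 4 RNA libraries used here come from 8-cell embryos of BDF1 x BDF1 crosses cultured in KSOM. Of these libraries, 2 followed a control knockdown and 2 followed knockdown of Yy1 with the siRNA that the labels number 1. The remaining 26 samples, MNase-seq and CUT&RUN, were not analysed here. Levels are given as FPKM, that is fragment counts divided by gene length and sequencing depth, so that they can be set side by side between genes.

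Initiation brings the initiator methionyl-tRNA, the small ribosomal subunit and the start codon of an mRNA together. eIF1 and eIF1A keep the small subunit in a form that can scan, eIF2 carries the initiator tRNA, eIF3 is a many-subunit scaffold on the small subunit, and the eIF4 proteins bind the cap and unwind the leader. eIF5 and eIF5B act in GTP hydrolysis and in joining of the large subunit, and eIF6 keeps the subunits apart. The mouse embryo switches to transcripts of its own genome mainly before the 8-cell stage, and initiation is a main step at which their translation is controlled.

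Yy1 itself stood at 77.7 and 71.2 FPKM in the controls, against 5.89 and 7.98 FPKM after Yy1 knockdown, so the targeted transcript matches the labels. The libraries held between 29302489 and 34429515 fragments, recovered from the steps between low values. All 10 genes listed as markers of the 8-cell embryo were above 0 in every library, with Dppa3 the highest at 2128 FPKM. The lowest, Zscan4c, is known from an earlier stage and so marks this stage poorly, at 0.23 to 3.21 FPKM. Of the 12 cumulus and granulosa markers 4 (Fshr, Has2, Inha and Ptx3) were listed at 0 in all libraries. The markers of that list summed to 5.55 and 5.59 FPKM in the controls against 7.95 and 7.90 FPKM after Yy1 knockdown. Most of this was Amhr2, at 5.35 and 4.74 against 7.80 and 7.30 FPKM. Every other marker of the list stood at or below 0.412 FPKM in every library. The higher sum thus follows Amhr2 alone and does not show more such cells, and its part in the results below was not tested. Sperm and blood cell markers summed to at most 1.49 and 1.68 FPKM in any library. The labels do not say whether replicates came from separate collections of embryos, so p-values rest on a spread between libraries that may be technical. In whole embryos, fewer cells of a type and less RNA per cell cannot be told apart.

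No initiation factor passed the test between Yy1 and control knockdown. Of the 55 members 51 reached a mean of 1 FPKM and were tested, and limma called 0 of these 51 at an adjusted p of 0.05, as it called 0 of all 12120 genes tested (0%), of which 1079 had an unadjusted p under 0.05. Even Yy1, with a log2 fold change of -3.26 (SE 0.19), missed that threshold (limma adjusted p = 0.0556, and 5.49e-05 to 0.809 over the alternatives), so a count of 0 does not show that the members did not differ. At an unadjusted p under 0.05 stood 4 members, 1 higher (Eif3f) and 3 lower (Eif1ax, Eif4ebp1 and Eif4e1b), which is 7.84% of the members beside 8.9% of all genes tested (4.22% higher and 4.69% lower). That count was 1 without control knockdown replicate 1 and 1 without replicate 2, 3 without Yy1 knockdown replicate 1 and 2 without replicate 2, and 6 with limma-voom. Limma-voom on recovered fragments called 13 genes (0.107%) and none of the members.

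As a set the initiation factors lay close to the whole transcriptome. By group mean 31 of 51 were higher and 20 lower, 60.8% higher beside 53.2% of all genes, and the median log2 fold change was 0.076 beside 0.024. Median-ratio scaling and quantile normalization left 28 of 51 higher, with medians of 0.056 and 0.059. In 14 members both Yy1 knockdown libraries stood above both controls and in 11 below both, and these 25 are 49.0% of the members beside 40.7% of all genes (21.8% above and 18.9% below). The median absolute log2 difference of a member was 0.152 between the group means, 0.142 between the single control libraries and 0.179 between the single Yy1 knockdown libraries, beside 0.207, 0.228 and 0.241 over all genes. Means of 2 libraries vary less than single libraries, so these differences are not on an equal footing. Summed over the 55 members, the levels were 4501 and 4578 FPKM in the controls, against 4721 and 4906 FPKM after Yy1 knockdown. The sum over all rows was also higher after Yy1 knockdown, at 851676 and 847012 against 841441 and 792945 FPKM, and the members' share of it overlapped, at 0.535 and 0.577% in control and 0.554 and 0.579% in Yy1 knockdown libraries.

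**Figure D1:**
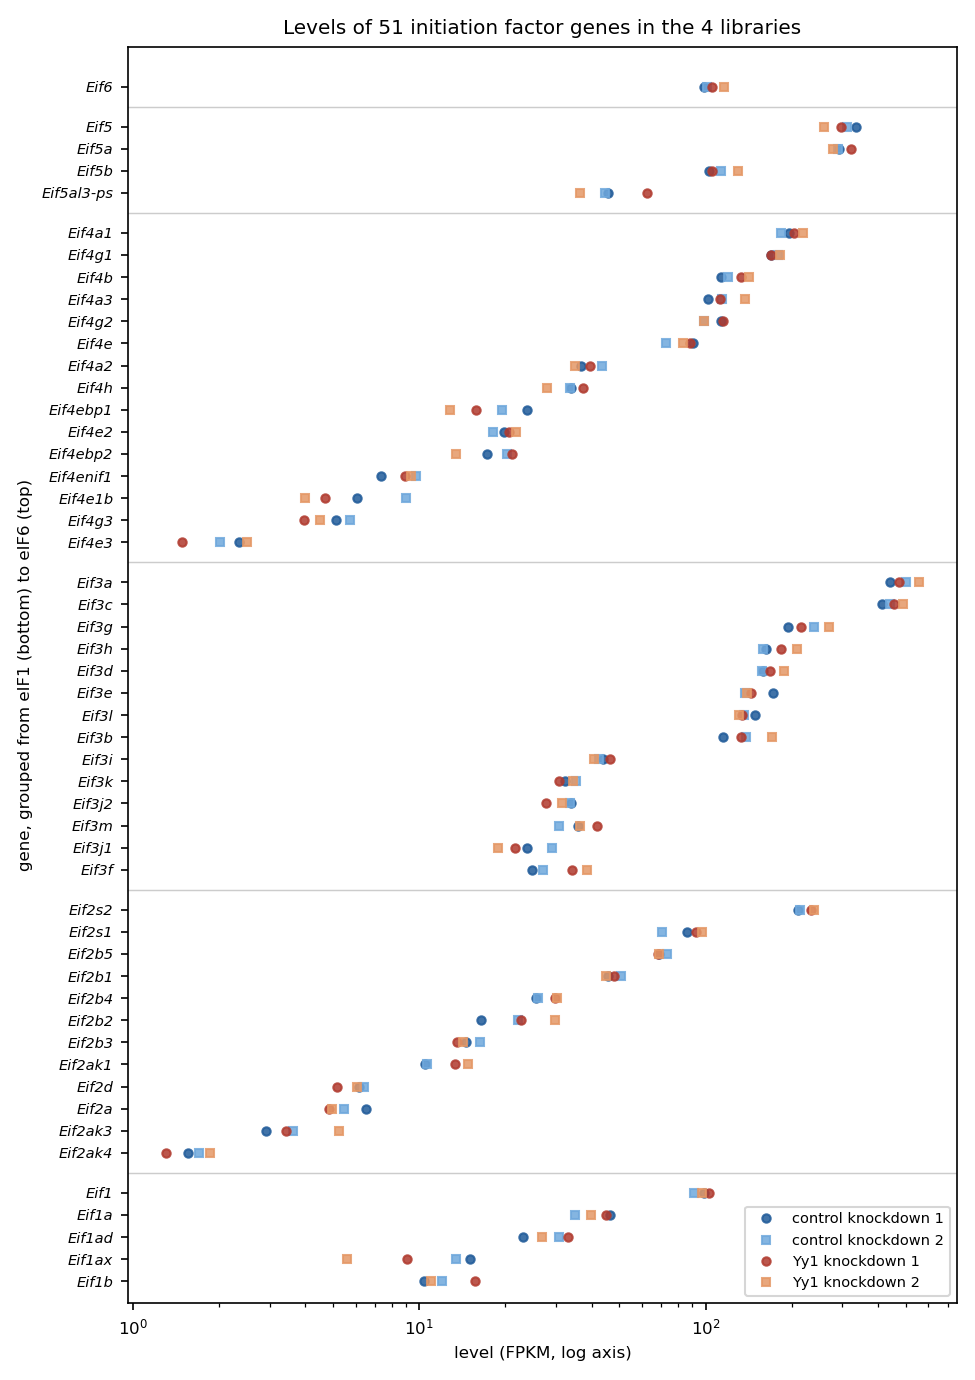
Levels of the 51 tested initiation factor genes (FPKM, log axis) in 2 control knockdown libraries (blue) and 2 Yy1 knockdown libraries (red and orange), 1 point per library, grouped by factor. Levels run from control means of 1.63 FPKM for Eif2ak4 to 472 FPKM for Eif3a, and most genes have all 4 points close together.

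The eIF1 group holds 2 proteins of start codon selection, eIF1 and eIF1A, each encoded by more than 1 gene. Eif1 was the most abundant of the group, at 98.8 and 91.0 FPKM in the controls against 103 and 96.8 FPKM after Yy1 knockdown (log2 fold change 0.08, SE 0.13, limma adjusted p = 0.887). Its relative Eif1b had 10.4 and 12 FPKM in the controls against 15.6 and 11 FPKM after Yy1 knockdown. Both pairs of groups overlapped, and the ratio of Eif1b to Eif1 ran from 0.105 to 0.132 in control and from 0.114 to 0.151 in Yy1 knockdown libraries.

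Eif1ax, the X-linked gene for eIF1A on chromosome X from 159372178 to 159389621 of mm10, had the smallest p of all members. It stood at 15.0 and 13.4 FPKM in the controls, against 9.08 and 5.59 FPKM after Yy1 knockdown. Both knockdown libraries were below both controls, and they differed from each other by more than the controls did. The means were 14.2 ± 1.14 and 7.33 ± 2.47 FPKM (SD, n = 2 each), 1.94-fold lower after Yy1 knockdown, from 862 to 2728 fragments per library. Its log2 fold change was -0.90 (SE 0.25), with an unadjusted limma p of 0.0126 and a limma adjusted p of 0.502. Over the alternatives run its adjusted p lay between 0.178 and 0.84, and without Yy1 knockdown replicate 2 its log2 fold change was -0.59.

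Eif1a, the autosomal gene for eIF1A, did not share that difference, with 46.4 and 35.1 FPKM in the controls against 44.8 and 39.7 FPKM after Yy1 knockdown. A ratio within a library does not depend on scaling between libraries. The ratio of Eif1ax to Eif1a was 0.324 and 0.383 in the control libraries and 0.203 and 0.141 in the Yy1 knockdown libraries. Eif1ax thus made up 24.5 and 27.7% of the summed level of both genes in control and 16.9 and 12.3% in Yy1 knockdown libraries. The sources used here do not say how the authors' counting shared reads between these similar transcripts. Eif1ad, which encodes a protein with an eIF1A-like domain, had means of 26.9 and 29.9 FPKM in the controls and after Yy1 knockdown, with overlap.

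**Figure D2:**
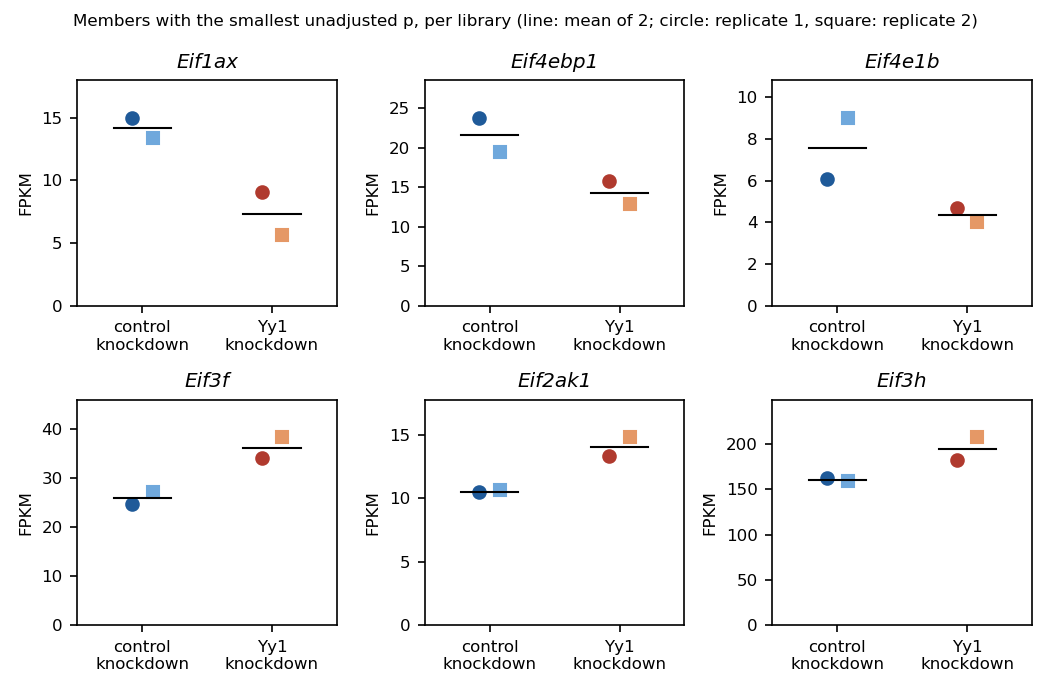
FPKM per library (points, circles replicate 1 and squares replicate 2) and group means (lines) for 6 members, chosen as the 3 with the smallest unadjusted limma p in each direction. Of the 20 lower members these are Eif1ax, Eif4ebp1 and Eif4e1b, and of the 31 higher members Eif3f, Eif2ak1 and Eif3h. In each of the 6 genes the control and Yy1 knockdown libraries do not overlap, which the choice by smallest p favours. Over all genes tested, taken without such a choice, the share is 40.7%.

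eIF2 delivers the initiator tRNA as a complex with GTP. Its alpha subunit gene Eif2s1 had 86.2 and 70.3 FPKM in the controls against 92.9 and 97.0 FPKM after Yy1 knockdown. The beta subunit gene Eif2s2, the most abundant member of the eIF2 group, had 211 and 214 FPKM in the controls against 233 and 239.6 FPKM after Yy1 knockdown. Both genes were higher in both knockdown libraries than in both controls, with log2 fold changes of 0.28 (SE 0.15) and 0.16 (SE 0.12) and limma adjusted p of 0.636 and 0.726. Of the whole eIF2 group 6 of 12 tested members were higher and 6 lower, with a median of 0.06. That median was -0.035 without the filter on low values and 0.03 to 0.148 without 1 library, and 9 of 12 were higher without control knockdown replicate 2.

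eIF2B is the exchange factor that recharges eIF2 with GTP and has 5 kinds of subunit, encoded by Eif2b1 to Eif2b5. All 5 were measured, and their control means ran from 15.4 FPKM for Eif2b3 to 70.8 FPKM for Eif2b5, a 4.58-fold range. This is a range of levels per length, and the recovered lengths of these 2 genes were 6520 and 3209 bases. Eif2b2 had 16.4 and 22.1 FPKM in the controls against 22.6 and 29.7 FPKM after Yy1 knockdown, with a log2 fold change of 0.43 (SE 0.22, limma adjusted p = 0.626). Eif2b4 was more even within groups, at 25.6 and 26.0 FPKM in the controls against 29.7 and 30.2 FPKM after Yy1 knockdown. Both were higher without overlap. Eif2b3 was lower without overlap, with means of 15.4 and 13.9 FPKM, while Eif2b1 and Eif2b5 overlapped. The median over the 5 was -0.047, and it turned to 0.028 without control knockdown replicate 2 and to 0.003 without Yy1 knockdown replicate 2.

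The kinases that phosphorylate eIF2 alpha and so lower initiation under stress differed widely in level. Eif2ak1, which encodes the heme-regulated kinase HRI, was the most abundant, at 10.5 and 10.6 FPKM in the controls against 13.3 and 14.8 FPKM after Yy1 knockdown. It was higher in both knockdown libraries, with a log2 fold change of 0.38 (SE 0.16), an unadjusted p of 0.0571 and a limma adjusted p of 0.571. Eif2ak3, the gene of the endoplasmic reticulum kinase PERK, had 2.91 and 3.62 FPKM in the controls against 3.42 and 5.25 FPKM after Yy1 knockdown. Eif2ak4, the gene of the amino acid sensor GCN2, had 1.56 and 1.70 FPKM in the controls against 1.30 and 1.86 FPKM after Yy1 knockdown. In both of these genes the groups overlapped, with log2 fold changes of 0.31 (SE 0.26) and -0.03 (SE 0.26) and limma adjusted p of 0.747 and 0.976. Eif2ak2, the gene of the double-stranded RNA sensor PKR, was listed at 0.02 to 0.112 FPKM and was not tested. Eif2a and Eif2d, whose products can bring initiator tRNA to the ribosome without eIF2, had group means of 5.98 against 4.90 FPKM and of 6.29 against 5.60 FPKM, both lower without overlap (limma adjusted p = 0.737 and 0.841). Eif2c5 was listed at 0 in all 4 libraries.

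The eIF3 subunits, taken per length, fell into an upper and a lower range of levels although they belong to 1 complex. In the control libraries Eif3a, the gene of the largest subunit, had 441 and 503 FPKM and Eif3c 414 and 440.0 FPKM. Eif3g, Eif3h, Eif3d, Eif3e, Eif3l and Eif3b followed with control means from 217 down to 126 FPKM. No subunit lay between 126 FPKM and 43.1 FPKM, the control mean of Eif3i. Eif3k, Eif3j2, Eif3m, Eif3j1 and Eif3f had control means from 33.8 down to 25.9 FPKM, so the 14 genes spanned an 18.2-fold range. Within the lower range the libraries of Eif3k, Eif3j2 and Eif3m overlapped in control, as did those of Eif3j1 and Eif3f. In the upper range the control libraries of Eif3e overlapped those of Eif3h, Eif3d, Eif3l and Eif3b, and those of Eif3l and Eif3b overlapped too. The order of genes that overlap in this way cannot be told. The gene lengths recovered with the fragment counts ran from 2379 to 5830 bases in the lower range and from 1253 to 5176 bases in the upper. Eif3i, at 3702 bases, had 5580 and 4929 fragments in the controls, and Eif3h, at 1253 bases, had 7049 and 6251. The part of these lengths in the split was not tested.

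Of the 14 eIF3 genes 9 were higher and 5 lower, with a median log2 fold change of 0.137, which was 0.117 with median-ratio scaling, 0.066 with quantile normalization, 0.043 when control knockdown replicate 1 was left out and 0.048 when Yy1 knockdown replicate 2 was. Eif3f, on chromosome 7 from 108934415 to 108941942, differed most. It stood at 24.8 and 27.1 FPKM in the controls, against 34.1 and 38.4 FPKM after Yy1 knockdown. Both knockdown libraries were above both controls. Its means were 25.9 ± 1.60 and 36.2 ± 3.08 FPKM (SD, n = 2 each) from 2456 to 3355 fragments per library. Its log2 fold change was 0.47 (SE 0.15), with an unadjusted limma p of 0.0227 and a limma adjusted p of 0.531, which lay between 0.276 and 0.84 over the alternatives.

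Eif3h, whose product pairs with that of Eif3f in the complex, had 163 and 159 FPKM in the controls against 183 and 208 FPKM after Yy1 knockdown. Its log2 fold change was 0.27 (SE 0.13, limma adjusted p = 0.612). Eif3m, Eif3d and Eif3c were also higher without overlap, with means of 33.3 against 39.0, 158 against 178 and 427 against 473 FPKM. Eif3a, the most abundant of all members, had 475 and 558 FPKM in the Yy1 knockdown libraries, overlapping its controls (log2 fold change 0.13, SE 0.15, limma adjusted p = 0.826). Eif3b and Eif3g overlapped too, at 126 against 152 and 217 against 242 FPKM by mean.

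The genes for the loosely bound eIF3j subunit were on the lower side. Eif3j1 had 23.7 and 29.1 FPKM in the controls against 21.6 and 18.8 FPKM after Yy1 knockdown, with a log2 fold change of -0.37 (SE 0.17) and a limma adjusted p of 0.607. Eif3j2 had 33.8 and 33.6 FPKM in the controls against 27.8 and 31.6 FPKM after Yy1 knockdown. Neither gene overlapped between groups, and their ratio, 0.702 and 0.865 in control against 0.777 and 0.595, did. Both encode near-identical proteins, so reads may have been shared between them. Eif3l was lower without overlap at 142 against 132 FPKM by mean. Eif3e, at 154 against 142 FPKM, Eif3k and Eif3i overlapped.

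**Figure D3:**
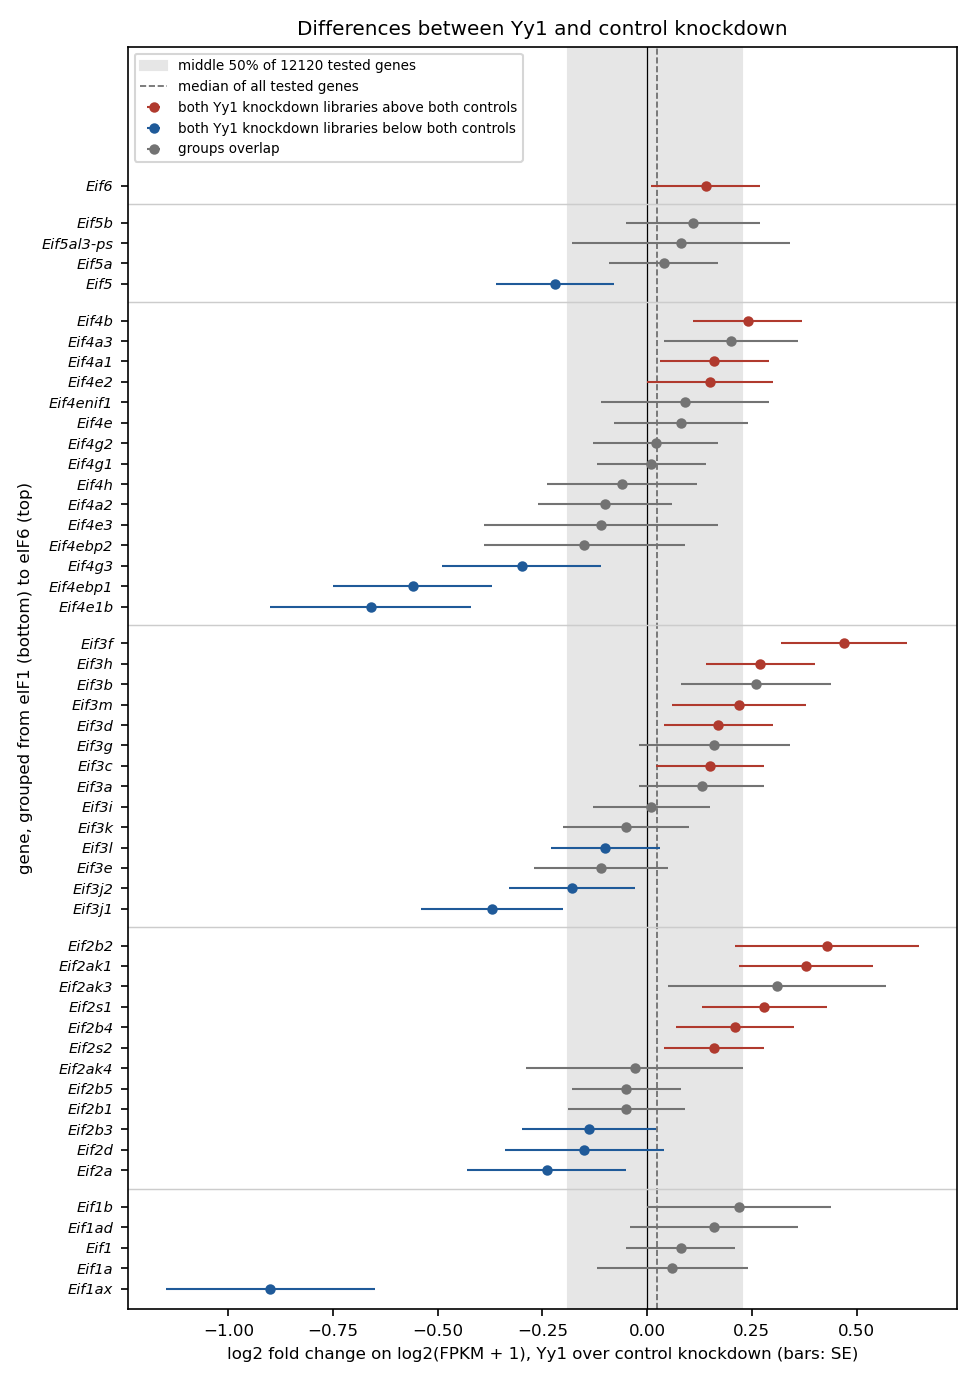
Log2 fold change of each tested member on log2(FPKM + 1), Yy1 over control knockdown, with its standard error (bars), grouped by factor and coloured by whether the libraries of both groups overlap. The grey band holds the middle 50% of all 12120 tested genes, and Eif1ax at -0.90 and Eif3f at 0.47 mark the ends of the members' range.

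eIF4F, the cap-binding complex, is built from the cap-binding protein eIF4E, the helicase eIF4A and the scaffold eIF4G. Eif4a1 was the most abundant of the eIF4 group, at 195 and 183 FPKM in the controls against 204 and 219.6 FPKM after Yy1 knockdown (log2 fold change 0.16, SE 0.13, limma adjusted p = 0.725). Its relative Eif4a2 had means of 40.1 and 37.2 FPKM with overlap. Eif4a3, which belongs to the exon junction complex and not to eIF4F, had 108 and 124 FPKM by mean with overlap. Eif4b, whose product stimulates the helicase, had 113 and 119.9 FPKM in the controls against 133 and 142 FPKM after Yy1 knockdown, higher without overlap (log2 fold change 0.24, SE 0.13, limma adjusted p = 0.634). Eif4h, with a like role, had means of 33.6 and 32.6 FPKM with overlap.

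Of the scaffold genes, Eif4g1 had means of 174 and 176 FPKM and Eif4g2, whose product lacks the eIF4E binding site, 106 and 107 FPKM, and both groups overlapped. Eif4g3 was far lower and differed more, with 5.11 and 5.75 FPKM in the controls against 3.96 and 4.49 FPKM after Yy1 knockdown (log2 fold change -0.30, SE 0.19, limma adjusted p = 0.678). Over the eIF4 group 8 of 15 tested members were higher, with a median of 0.015, and this direction turned to 6 of 15 higher and medians of -0.006 and -0.013 with median-ratio scaling and quantile normalization. Without control knockdown replicate 1 or 2 the median was -0.032 or -0.042, and without Yy1 knockdown replicate 1 or 2 it was 0.043 or 0.059.

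Eif4e itself had 90.7 and 72.8 FPKM in the controls against 88.0 and 83.7 FPKM after Yy1 knockdown, with overlap. Its relative Eif4e1b, on chromosome 13 from 54783994 to 54788459 and known for its expression in oocytes, stood at 6.07 and 9.02 FPKM in the controls, against 4.67 and 4.0 FPKM after Yy1 knockdown. Both knockdown libraries were below both controls, and the controls lay farther apart than the knockdown libraries. The means were 7.54 ± 2.09 and 4.33 ± 0.479 FPKM (SD, n = 2 each), 1.74-fold lower, from 264 to 639 fragments. The log2 fold change was -0.66 (SE 0.24), with an unadjusted limma p of 0.0361 and a limma adjusted p of 0.541, which lay between 0.296 and 0.848 over the alternatives. Without control knockdown replicate 2 the log2 fold change was -0.41. The ratio of Eif4e1b to Eif4e was 0.0669 and 0.124 in control and 0.0531 and 0.0477 in Yy1 knockdown libraries. Eif4e2, the gene of the cap-binding repressor 4EHP, had means of 19.0 and 21.1 FPKM, higher without overlap, and Eif4e3 had 2.18 and 1.99 FPKM with overlap.

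The 4E-binding proteins hold eIF4E away from eIF4G until mTOR phosphorylates them. Eif4ebp1, on chromosome 8 from 27260327 to 27275656, stood at 23.8 and 19.5 FPKM in the controls, against 15.8 and 12.8 FPKM after Yy1 knockdown. Both knockdown libraries were below both controls. The means were 21.6 ± 3.07 and 14.3 ± 2.17 FPKM (SD, n = 2 each), 1.51-fold lower, from 822 to 1800 fragments. The log2 fold change was -0.56 (SE 0.19), with an unadjusted limma p of 0.0271 and a limma adjusted p of 0.532, which lay between 0.281 and 0.84 over the alternatives. The ratio of Eif4ebp1 to Eif4e, chosen after the values were seen, was 0.263 and 0.267 in control and 0.180 and 0.153 in Yy1 knockdown libraries. Its ratio to Eif4ebp2, chosen in the same way, was 1.38 and 0.958 in control and 0.756 and 0.956 in Yy1 knockdown libraries, and so hardly separated. Eif4ebp2 had 17.3 and 20.3 FPKM in the controls against 21.0 and 13.4 FPKM after Yy1 knockdown, with the knockdown libraries on either side of the controls. Eif4ebp3 was listed at 0 in all 4 libraries. Eif4enif1, the gene of the eIF4E transporter that carries eIF4E to RNA granules, had means of 8.56 and 9.10 FPKM with overlap.

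**Figure D4:**
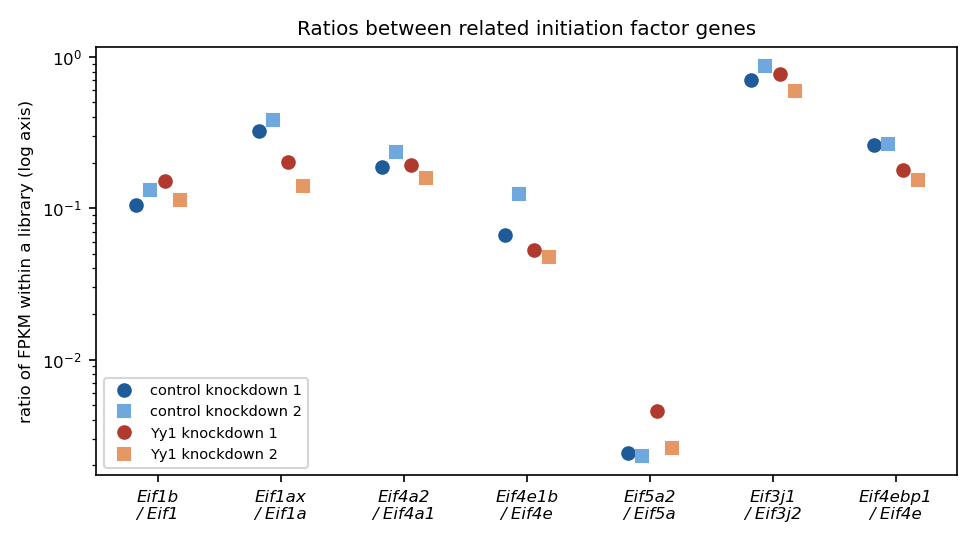
Ratio of FPKM between related initiation factor genes within each library (log axis), 2 control knockdown libraries in blue and 2 Yy1 knockdown libraries in red and orange. The ratios Eif1ax to Eif1a, Eif4e1b to Eif4e and Eif4ebp1 to Eif4e are lower in both Yy1 knockdown libraries, the last of them chosen after the values were seen. Their numerators are lower without overlap as single genes, and Eif1a and Eif4e overlap, so these ratios largely restate those differences. Of all single genes tested 40.7% do not overlap, and no such share was computed for ratios. Eif5a2 to Eif5a is higher in both, but Eif5a2 was below the filter of 1 FPKM. Its ratio in Yy1 knockdown replicate 2, 0.00261, lies close to the controls at 0.0024 and 0.00232. The other 3 ratios overlap.

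The late-acting factors were abundant. Eif5, the gene of the protein that triggers GTP hydrolysis by eIF2, had 336 and 311 FPKM in the controls against 298 and 259 FPKM after Yy1 knockdown. It was lower without overlap, with a log2 fold change of -0.22 (SE 0.14) and a limma adjusted p of 0.677. Eif5b, which encodes the GTPase of subunit joining, had means of 108 and 117 FPKM with overlap. Eif5a, whose hypusine-bearing product also acts in elongation, had 293 and 289 FPKM in the controls against 321 and 279 FPKM after Yy1 knockdown. Its relative Eif5a2 stayed below the filter, at 0.705 and 0.671 FPKM in the controls against 1.47 and 0.726 FPKM after Yy1 knockdown. Eif5al3-ps had 45.5 and 44.5 FPKM in the controls against 62.4 and 36.5 FPKM after Yy1 knockdown. Eif6 had 98.9 and 101 FPKM in the controls against 105 and 116 FPKM after Yy1 knockdown, higher without overlap (log2 fold change 0.14, SE 0.13, limma adjusted p = 0.77).

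Some rows outside the name rule bear on how far single members can be read. Eif4a-ps4 was listed at 380.2 and 375 FPKM in the controls against 402 and 452 FPKM after Yy1 knockdown, above Eif4a1. Eif1-ps1 had 12.4 and 13.3 FPKM in the controls against 20.4 and 24.7 FPKM after Yy1 knockdown (log2 fold change 0.76, SE 0.17, limma adjusted p = 0.462). Eif3s6-ps1, named after an older symbol of Eif3e, had 61.2 and 59.6 FPKM in the controls against 35.5 and 64.8 FPKM after Yy1 knockdown. Eif3s6-ps2 went the other way, with 9.55 and 10.8 FPKM in the controls against 15.8 and 12.8 FPKM (log2 fold change 0.45, SE 0.18, limma adjusted p = 0.564). Pseudogene rows can take reads of the parent gene, and the sources used here do not say how reads with several matches were counted.

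Around initiation, 5 further lists of the translation machinery held 0 called genes (limma, adjusted p) among 47 tested, beside 0 of all 12120 genes tested. Of the 47 genes 2, Eef2 and Lsm14a, had an unadjusted limma p under 0.05, beside 8.9% of all genes tested, so these 2 do not set the lists apart. Of the initiation helpers outside the Eif symbols 5 of 10 were higher (median 0.03), with Larp1, which binds the leaders of ribosomal protein mRNAs, at 119 against 103 FPKM. Poly(A) binding proteins and partners were higher in 4 of 5 tested (median 0.049). Pabpc4 was at 195 against 213 FPKM, and Paip1, whose groups overlapped, at 16.7 against 17.9 FPKM (limma adjusted p = 0.785 and 0.884). Of the elongation and release factors 5 of 9 were higher (median 0.031). Eef2, the translocase of elongation, stood at 596 and 575 FPKM in the controls against 721 and 747 FPKM after Yy1 knockdown (log2 fold change 0.32, SE 0.12, limma adjusted p = 0.548), and Eef1b2 had means of 152 and 124 FPKM. Of the kinases and phosphatase subunits upstream of initiation 9 of 14 were lower (median -0.041). Mknk1, a kinase of eIF4E, was at 5.89 against 3.98 FPKM, and Ppp1r15b, a partner of the phosphatase of eIF2 alpha, at 31.3 against 36.4 FPKM (limma adjusted p = 0.642 and 0.679). Of the genes for maternal mRNA storage and repression 4 of 9 were higher (median -0.007), with Lsm14a at 8.18 against 11.6 FPKM and Igf2bp2 at 29.1 against 23.1 FPKM (limma adjusted p = 0.535 and 0.606).

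Promoter windows from RefSeq (GRCm38.p6, from 250 bases before to 50 bases after an annotated start) were at hand for 42 of the 55 members. They were searched on both strands for the YY1 core GCCATNTT. Of these 42 genes 7 held it in a window (16.7%), beside 11.6% of the 6866 tested genes with a window and 6.96% of all 27025 genes with one. The longer YY1 consensus, which extends the core by flanking bases, was in the windows of 0 of the 42 and of 2.14% of the tested genes. The matches are shown because YY1 is the factor knocked down, as 30 bases on the strand of the gene with the core or its reverse complement in capitals.
Eif3f: tctttctcggcAAGATGGCttctccggccg
Eif4e: cagatcgatctAAGATGGCgactgtggaac
Eif4a1: tgctgggttccAAGATGGCtgccccgccgc
Eif2s2: gttaaacctgaAAAATGGCcccaaattcac
Eif2b4: cagcccagctcGCCATTTTggtgggcctga
Eif1b: acgcggcgccgGCCATTTTgtgcgagaagc
Eif4g3: gcggccgcagcGCCATGTTggatgctctgc

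These stretches lie at chr7:108934418-108934447 (plus strand) for Eif3f, chr3:138527283-138527312 (plus) for Eif4e, chr11:69672571-69672600 (minus) for Eif4a1, chr2:154893119-154893148 (minus) for Eif2s2, chr5:31193295-31193324 (minus) for Eif2b4, chr9:120492610-120492639 (plus) for Eif1b and chr4:137993476-137993505 (plus) for Eif4g3. The core began after the annotated start of its window in Eif3f (base 15), Eif1b (base 16), Eif4e (base 27) and Eif4g3 (base 32). It began before that start in Eif4a1, Eif2b4 and Eif2s2. For Eif4e and Eif4g3 the window begins at 138527018 and 137993206, inside genes that begin at 138526191 and 137991779. Their start is therefore a later one than the first base of the gene. In Eif3f, Eif4e and Eif4a1 the reverse complement reads AAGATGGC. Of the 7 genes 6 were higher after Yy1 knockdown by group mean and 1, Eif4g3, was lower, with a median log2 fold change of 0.164. In Eif4e and Eif1b the groups overlapped. The log2 fold change of Eif4e was -0.078 without control knockdown replicate 2, and that of Eif1b was -0.014 without Yy1 knockdown replicate 1. Among the 32 other tested members with a window 19 were higher, with a median of 0.083. Of all genes tested, with or without a window, 53.2% were higher. The direction over all tested genes with the core was not computed, so these few members do not tie it to the core. A match is a run of letters in these windows, and binding of YY1 was not analysed here.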

How the data were processed

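The authors deposited a table of FPKM with 4 columns, a column for each RNA library. Per the labels' protocols, total RNA went into a stranded SMART-Seq kit. HISAT2 2.2.1, Bowtie2 2.4.3, featureCounts, Trim Galore 0.6.7, R 4.0.3, bedtools and SAMtools 1.4.1 and the mm10 build stand in the submitters' processing notes, which do not tie them to assays. For the annotation release, strand setting and multi-mapped reads nothing is stated. Sample titles gave the groups and replicate numbers.

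Genes whose mean reached 1 FPKM were tested on log2(FPKM + 1) with limma 3.58.1 in R 4.3.3, with group alone, a mean-variance trend and Benjamini-Hochberg adjustment over all 12120 genes. The script was tested on simulated data. This scale shrinks fold changes of low genes. Groups do not overlap where both Yy1 knockdown libraries lie on the same side of both controls. With 2 libraries a group, an exact permutation test of 1 value cannot go below p = 0.333. Fragment counts were recovered from the FPKM steps (whole within 0.02 fragments in all libraries for 12120 of 12120 genes) and may be understated by a common factor. They cover counting error only. Values, fold changes and adjusted p were given for the 12 members with the smallest p, the most abundant member of each factor, Eif4e1b and the eIF2 alpha kinases, and otherwise as means and counts. From each wider list up to 2 genes with the smallest p were named, except for a gene that is not reported here, and the pseudogene rows were added after their values were seen. Positions, biotypes and promoter windows come from RefSeq's GRCm38.p6, which names all 55 members. The members, gene lists and rules were chosen with earlier results of these data known. Alternatives were a pseudocount of 0.1, filters of 5 FPKM or none, 2 scalings, a replicate block, leaving out each library, robust moderation, protein-coding genes alone and limma-voom on recovered fragments.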

Additional observations from a re-analysis of the deposited data

How the results depend on the processing

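The count of called initiation factors was 0 under all 13 alternatives run, leaving out each library included. The count of all called genes was 0 with all libraries and in each fit without a library, 4 with a filter of 5 FPKM, where fewer genes were tested, 1 with robust empirical Bayes, 14 among 8214 protein-coding genes and 13 with voom on recovered fragments; the cause of the last 3 was not tested. The median log2 fold change over the members, 0.076, was 0.056 with median-ratio scaling and 0.059 with quantile normalization. Without control knockdown replicate 1 it was 0.045, beside -0.005 over all genes tested. Without control knockdown replicate 2 it was 0.028, below the 0.045 of all genes. Without Yy1 knockdown replicate 1 it was 0.031 beside -0.001, and without replicate 2 it was 0.074 beside 0.041. Each of the first 3 of these libraries thus bears on the members' median, and the median of all genes moved as well. The fit with the replicate number as a block gave the same 0 called members, a median of 0.076 and 4 members at an unadjusted p under 0.05, and moved all genes under it from 1079 to 1187. Same-numbered libraries deviated together with a correlation of 0.0994 over genes. The labels name no collection or batch behind the numbers, so whether they pair the samples cannot be told. The filters, the block, robust moderation and protein-coding genes alone leave a member's fold change as it is by construction. Of the 204 log2 fold changes of 51 members under the 4 alternatives that can change it 198 kept their direction, and 6 of 4 members turned: with median-ratio scaling Eif3i (-0.007), Eif4g1 (-0.006) and Eif4g2 (-0.004), and with quantile normalization Eif4g1 (-0.012), Eif4g2 (-0.013) and Eif5a (-0.071). Such fits rescale all libraries, and the median of all genes moved from 0.024 to 0.006 in both.

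Leaving out 1 library leaves a lone sample in a group, assumed to vary like the other group. In these fits 30 of 51 members kept their direction and 21 did not, with ranges of -0.135 to 0.259 for Eif1a, -0.046 to 0.357 for Eif1ad, -0.014 to 0.446 for Eif1b, -0.19 to 0.121 for Eif2ak4, -0.121 to 0.028 for Eif2b1, -0.094 to 0.0 for Eif2b5, -0.273 to 0.05 for Eif3e, -0.002 to 0.314 for Eif3g, -0.076 to 0.103 for Eif3i, -0.131 to 0.031 for Eif3k, -0.223 to 0.021 for Eif4a2, -0.078 to 0.234 for Eif4e, -0.355 to 0.14 for Eif4e3, -0.459 to 0.154 for Eif4ebp2, -0.089 to 0.27 for Eif4enif1, -0.037 to 0.067 for Eif4g1, -0.095 to 0.129 for Eif4g2, -0.258 to 0.144 for Eif4h, -0.064 to 0.139 for Eif5a, -0.295 to 0.462 for Eif5al3-ps and -0.041 to 0.265 for Eif5b. Of the 30 that kept theirs 21 moved by over 1.5 times, among them Eif1ax (-1.208 to -0.594), Eif4e1b (-0.913 to -0.409), Eif2b2 (0.221 to 0.631), Eif2s1 (0.138 to 0.427), Eif2ak3 (0.057 to 0.555), Eif3j1 (-0.509 to -0.225), Eif3a (0.011 to 0.244), Eif5 (-0.316 to -0.115), Eif1 (0.018 to 0.135) and Eif6 (0.074 to 0.21), and 9 did not, among them Eif4ebp1 (-0.71 to -0.42) and Eif3f (0.382 to 0.551). Depth limits the lowest tested members most, Eif4e3 having 127 to 203 fragments per library.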
